A study of Mus musculus with 36 samples.

Results

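The apolipoprotein and lipoprotein secretion genes examined here were Apoa1, Apoa2, Apoa4, Apoa5, Apob, Apoc1, Apoc3, Apoe and Mttp, and their H3K9me3 was followed in the liver of male and female mice with age and with maternal obesity. H3K9me3 is trimethylation of lysine 9 on histone H3, and it was measured by ChIP-seq, in which crosslinked chromatin is precipitated with an antibody against the mark and sequenced. The members were taken by name, as the rows of 6 deposited tables whose gene symbol was one of the 9. Each row is a bin, a short peak or 1 piece of a longer one, assigned by the authors to the nearest gene. The 9 genes had 139 of the 786789 rows, at 77 different positions, and 8 of the 9 had at least 1 bin of their own. Apoa2 had none in any table.

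The series has 32 ChIP libraries of whole liver in 8 groups of 4, and 4 input libraries that were not used here. Control females (CF) and control males (CM) were born to dams on chow, and females and males of obese dams (MF and MM; maternal obesity, MO) to dams given a Western-style diet from before mating to the end of lactation. Each of the 4 kinds was taken at 3 weeks, before weaning, and at 8 weeks, after a period on chow in all groups. Per the study's methods, all offspring carried a floxed Reg3g allele, in 1 or both copies (Reg3g-fl/+ or Reg3g-fl/fl), on a C57BL/6J background, and large litters were culled. The labels do not say which animals were littermates, so the p-values measure the spread between these libraries. The tables compare 8 with 3 weeks in CF and in CM, and MO with control in each sex at each age. For each bin they hold a log2 change, an average level as CPM (reads scaled to library size), the p of an exact test and its adjusted value, the false discovery rate (FDR), with no value per library. A level in every animal can therefore not be shown, and neither the depth of a library nor its place within its group is known here. Whole liver holds several cell types, and a share of cells with the mark cannot be told apart from the amount of mark per cell.

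Lipoproteins carry triglyceride and cholesterol through the blood. In hepatocytes, apolipoprotein B is the scaffold around which a very-low-density lipoprotein is built, and the microsomal triglyceride transfer protein, encoded by Mttp, loads it with lipid as it enters the endoplasmic reticulum. Apolipoproteins A-I and A-II are the main proteins of high-density lipoprotein, whereas A-IV, A-V, C-I, C-III and E are exchanged between particles and act on lipolysis and uptake. H3K9me3 marks repressed chromatin, above all repeats and silenced genes, and these genes are among the most active in liver.

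The stretches of DNA that the results turn on are the only member bin that passed the FDR threshold for age, and RefSeq promoter windows (GRCm38.p6, from 250 bases before to 50 bases after a transcript start) of 3 members. Listed bins overlapped the Apob window in 5 tables and the Mttp window in 4, and the Apoa2 window is shown as that of the member with no bin. Capitals mark CG dinucleotides.
Bin upstream of Apob (chr12:7945230-7945500, plus strand): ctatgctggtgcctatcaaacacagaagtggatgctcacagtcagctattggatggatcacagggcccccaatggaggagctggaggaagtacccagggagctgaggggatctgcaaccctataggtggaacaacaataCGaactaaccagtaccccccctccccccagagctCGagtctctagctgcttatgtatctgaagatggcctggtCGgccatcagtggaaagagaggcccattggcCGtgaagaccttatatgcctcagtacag
Apob promoter (chr12:7977427-7977726, plus strand): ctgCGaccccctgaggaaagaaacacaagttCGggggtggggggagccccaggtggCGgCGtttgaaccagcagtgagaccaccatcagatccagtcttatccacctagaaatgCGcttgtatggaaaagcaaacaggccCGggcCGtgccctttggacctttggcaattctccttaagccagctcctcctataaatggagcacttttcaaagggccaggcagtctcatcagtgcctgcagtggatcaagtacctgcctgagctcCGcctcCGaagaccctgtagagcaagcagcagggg
Mttp promoter (chr3:138143369-138143668, minus strand): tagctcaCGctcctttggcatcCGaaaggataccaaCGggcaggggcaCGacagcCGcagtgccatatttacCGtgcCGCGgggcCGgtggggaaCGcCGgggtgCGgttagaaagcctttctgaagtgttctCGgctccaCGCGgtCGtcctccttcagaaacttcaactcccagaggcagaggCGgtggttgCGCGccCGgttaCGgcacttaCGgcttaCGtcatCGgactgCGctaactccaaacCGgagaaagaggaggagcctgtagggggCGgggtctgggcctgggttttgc
Apoa2 promoter (chr1:171224804-171225103, plus strand): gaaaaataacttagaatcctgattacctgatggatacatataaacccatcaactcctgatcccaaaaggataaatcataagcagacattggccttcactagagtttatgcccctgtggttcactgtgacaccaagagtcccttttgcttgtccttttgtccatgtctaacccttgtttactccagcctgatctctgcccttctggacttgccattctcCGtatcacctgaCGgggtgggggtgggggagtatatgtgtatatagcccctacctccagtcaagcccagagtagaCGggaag

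RefSeq gave 11 windows for 7 of the 9 members, and none for Apoc1 and Apoc3. The Mttp window holds 27 CG dinucleotides, more than 84.5% of the 32851 windows of the table, the Apob window 9 and the printed Apoa2 window 3, where the median window has 7. The letters TATAAA, the core of a TATA box, occurred on either strand in 5 of the 11 windows, including those of Apob and Apoa5, and in 13.6% of all windows. The half-site AGGTCA of nuclear receptors occurred on either strand in 1 of the 11, an upstream Apoa2 window that is not printed, and in 16.3% of all windows. That upstream window lay within a peak in 3 tables, and the printed one in none. Windows of 1 gene overlap in Apoa5 and Apoe and are not independent.

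H3K9me3 peaks lay over most of the small members and over little of the large ones. Taking together the peaks of the 3 tables of a sex, peaks covered 84.4% of the Apoc3 gene in females and 88.1% in males, 78.0% and 94.3% of Apoe, 63.9% and 77.4% of Apoa5, and 58.3% and 92.7% of Apoa1. Apoc1 followed with 21.5% and 52.6%, and Apoa4 with 29.9% and 48.6%. The median over 21911 protein-coding genes was 8.90% in females and 9.37% in males, so these 6 short genes were above it in both sexes. Apoa2, the shortest member at 1326 bp, was covered over 0% in both. The median is over genes of all lengths, and a comparison with genes of like length was not made. Apob, which spans 39188 bp, was covered over 1.80% and 1.87%, and Mttp over 2.64% and 5.95%. Peaks were common in general, and touched 79.5% of protein-coding genes in females and 78.5% in males.

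The position of the marked stretch within a gene differed from member to member. The start of the gene in GENCODE vM21 lay within a peak for 3 members in each sex, Apoa5, Apob and Apoc1, against 48.1% of all protein-coding genes in females and 49.2% in males. In Apoe the nearest peak was 679 bp from the start in females and 175 bp in males. In Apoa4 the distances were 436 and 268 bp, in Apoc3 298 and 255 bp, and in Apoa1 709 and 65 bp. The peak over the Mttp promoter window lay at an inner start of the gene, 909 and 877 bp from the outermost one, and was listed in 4 of the 6 tables. Since the authors called a bin a promoter bin within 3 kb of any transcript start, most promoter bins of these short genes lay in the gene body.

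Apoa2, whose gene occupies chr1:171225054-171226379 on the plus strand, stood apart from the other members. The nearest peak was 3033 bp from its start in females and 5341 bp in males. In all 6 tables the bin closest to the gene was assigned to Tomm40l, a homologue of a mitochondrial import gene, and it lay between 5413 and 6093 bp upstream of Apoa2. In control females this bin had a log2 change with age of -0.82 (exact p = 0.0298, FDR = 0.288), and in control males a bin of the same gene had 0.48 (exact p = 0.319).

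Of the 50 member bins tested for age in both sexes, 1 passed the threshold. A log2 change above 0 is a higher level at 8 weeks throughout. In control females none of 19 member bins passed an FDR of 0.05, against 2.72% of all bins of the table, and 5 had an unadjusted p under 0.05, against 17.5%. In control males 1 of 31 passed, a bin upstream of Apob that fell, against 4.41%, and 7 had an unadjusted p under 0.05, against 21.8%. In males both shares were close to those of the whole table, and in females the first was below and the second above, as the plot of shares past a p of 0.05 shows.

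**Figure D1:**
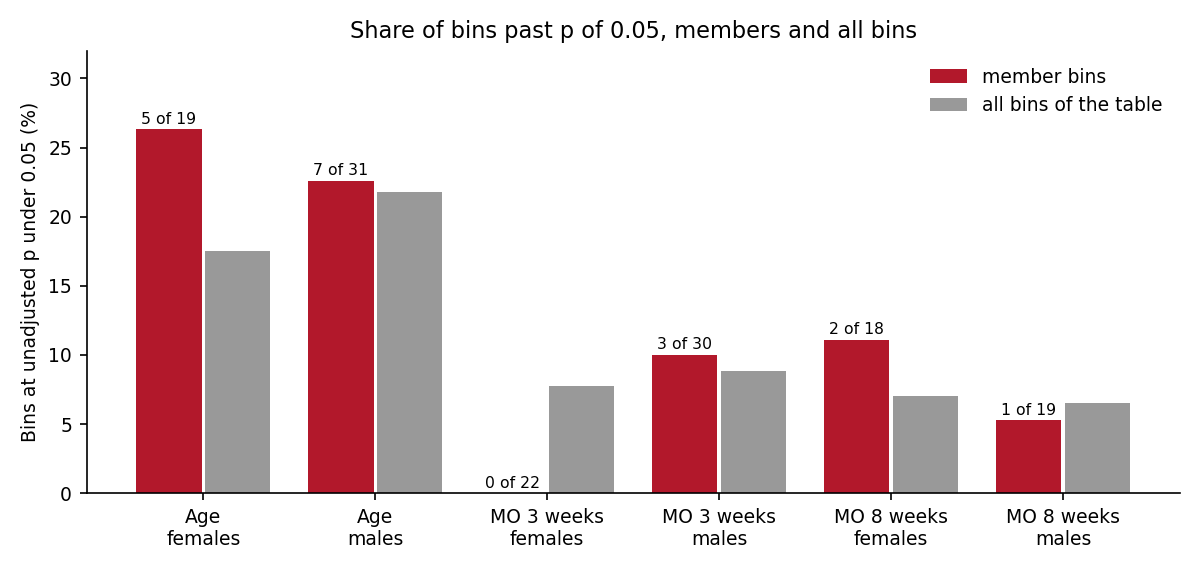
Percent of bins with an unadjusted p under 0.05 (y axis) in each of the 6 comparisons (x axis), for the member bins (red, with counts) and for all bins of the same table (grey). Members and all bins were closest for age in males, 7 of 31 bins against 21.8%, and no member bin passed in females at 3 weeks.

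The median log2 change with age over the member bins was -0.16 in females, against -0.03 over all bins, and -0.03 in males, against -0.05. Signs differed among the members, with changes from -1.23 to 1.22 in females and from -1.79 to 0.89 in males. The approximate 95% interval of a bin, taken from its change and p, reached 0.82 on either side of the change in the median female member bin and 0.81 in the median male one. Changes under about that size could not be told from 0. All intervals given here were derived this way and rest on a normal approximation.

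The promoter bins listed in the sexes were mostly different pieces, and a difference between the sexes over them was not tested. In control males 8 of the 9 were higher at 8 weeks, with a median log2 change of 0.47, where 54.7% of the 30097 promoter bins of the table were higher, with a median of 0.12. In control females 3 of 7 were higher, with a median of -0.01, where 52.5% of 25490 were higher. The 22 male member bins outside promoters had a median of -0.28, and 15 of them were lower. Of all male bins outside promoters 54.2% were lower, with a median of -0.07, and 17 of the 22 were distal bins of Apob. After a trend with GC content and signal was removed, 7 of the 9 male promoter bins remained higher and their median was 0.21. The median of the 22 bins outside promoters was then -0.15. Values after this step are called trend-adjusted below. Of the 9 promoter bins, 1 had an unadjusted p under 0.05 and none passed the FDR threshold.

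**Figure D2:**
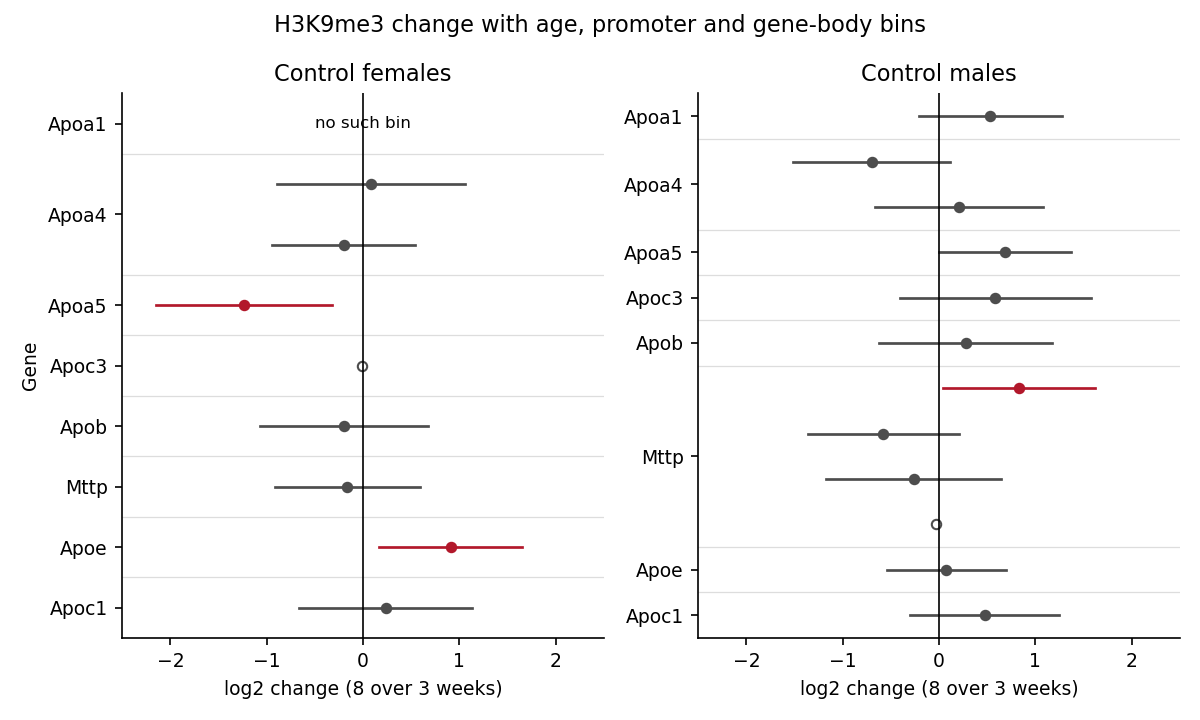
Log2 change with age (x axis, 8 over 3 weeks) of each bin in a promoter or gene body (a row each, ordered from upstream to downstream within a gene) in control females and control males. Points are the authors' changes and lines the approximate 95% intervals, red marks an unadjusted p under 0.05 and an open point a p of 1 with no interval; Apoa5 and Apoe in females and Mttp in males are the red rows, and in males 8 of the 9 promoter bins lie right of 0.

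Apoa1, the main protein of high-density lipoprotein, lies at chr9:46228580-46230466 on the plus strand, at one end of a cluster of 43340 bp that also holds Apoc3, Apoa4 and Apoa5. It had no bin in the female age table. In control males the bin at chr9:46229645-46230145, which reaches an exon of Apoa1, had an implied mean level of 3.73 CPM at 3 weeks and 5.40 CPM at 8 weeks. Implied means here are the 2 group levels that give both the deposited average and the deposited change, and they are comparable only within a table, since the same group differed by a factor of 0.731 to 1.17 between tables in the median bin. The log2 change at Apoa1 was 0.53 (95% interval -0.21 to 1.27, exact p = 0.160, FDR = 0.555), which was within the spread of the test.

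Apoa4, Apoa5 and Apoc3 follow in the same cluster. Apoa4 (chr9:46240696-46243459), whose protein is carried on chylomicrons and high-density lipoprotein, had 2 bins in its gene in females, with log2 changes of 0.08 (exact p = 0.868) and -0.20 (exact p = 0.596). In males the bin in its first kb had 0.21 (exact p = 0.638), and a bin upstream of the start had -0.70 (exact p = 0.0908). Those 4 values did not differ from 0 beyond their error, and the first turned to -0.05 when trend-adjusted. Downstream of Apoa4 the bins had negative values in both sexes. In females the bin 3.9 kb from the gene start had a change of -0.86 (-1.60 to -0.12, exact p = 0.0222, FDR = 0.250), with implied means of 7.70 and 4.24 CPM. In males the bin at 3.5 kb had -0.70 (exact p = 0.0985), and the bin at 12.3 kb -1.09 (-1.88 to -0.30, exact p = 0.00671, FDR = 0.117), with 6.05 and 2.85 CPM. None of these 3 bins passed the FDR threshold. The trend-adjusted change of the female bin was -0.60 and it no longer had a p under 0.05. Those of the male bins were -0.30 at 3.5 kb and -0.89 at 12.3 kb, and the latter kept a p under 0.05.

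Apoa5 (chr9:46268633-46271919) encodes an apolipoprotein that promotes the lipolysis of triglyceride. Its peak was about 3 kb long, and the listed bin was not the same piece in the sexes. In females the bin just upstream of the gene, chr9:46267751-46268251, had implied means of 6.66 CPM at 3 weeks and 2.83 CPM at 8 weeks and a change of -1.23 (-2.15 to -0.32, exact p = 0.00800, FDR = 0.152), the largest decrease of any member bin in that table. In males the bin within the gene, chr9:46270095-46270595, had 3.93 and 6.31 CPM and a change of 0.68 (exact p = 0.0516, FDR = 0.337). The female bin was near the lower edge of signal, with 1.90% of bins below its level. Trend-adjusted, the female value was -1.08 and the male one 0.21, and only the female one had a p under 0.05. The bins do not overlap, so the sexes cannot be compared at Apoa5. Apoc3 (chr9:46232933-46235636, minus strand), an inhibitor of lipoprotein lipase, had implied means of 5.50 and 5.45 CPM in females (log2 change -0.01, exact p = 1). In males its bin had 2.39 and 3.58 CPM (0.59, exact p = 0.248), and was at the lower edge of the table, with 0.853% of bins below its level.

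Apob (chr12:7977648-8016835, plus strand) had 75 of the 139 rows, and 70 of these lay over 10 kb from the gene start. Neither promoter bin differed with age beyond its error. In females chr12:7976966-7977466, just before the start, had implied means of 5.40 and 4.71 CPM and a log2 change of -0.20 (-1.06 to 0.67, exact p = 0.659). In males chr12:7977469-7977969, which covers the start and most of the printed promoter, had 3.42 and 4.15 CPM and a change of 0.28 (-0.62 to 1.18, exact p = 0.547). Trend-adjusted, the female value turned to 0.16 and the male one was 0.14. No other bin lay in the gene in either age table.

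The bin that passed the threshold, whose 271 bases are printed first above, lay 32148 bp upstream of the Apob start, in an intron of the long non-coding RNA gene Gm48633 on the opposite strand. Its implied mean fell from 5.75 CPM at 3 weeks to 1.66 CPM at 8 weeks in control males, a log2 change of -1.79 (-2.70 to -0.89, exact p = 0.000102, FDR = 0.00889). It is a peak of a single bin, with a level above that of 22.6% of the bins of the table. All its bases are soft-masked in the reference, that is, marked as repeat, and it was the only one of the 77 positions of which this is true. Of its 75-base stretches, the read length of the study, 23.9% occur again elsewhere in GRCm38 without a mismatch, and 66 of the 77 positions have no such stretch. After subtraction of the median change of bins alike in GC content and signal, the change was -1.39 and the adjusted p 0.0870, which no longer passed. The part that repeated sequence or base composition has in this change was not tested. No female table listed a bin over this position: the nearest bin in the female age table was 31466 bp away.

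Other bins around Apob were distal and none passed the FDR threshold. The bin about 80 kb upstream was higher at 8 weeks in both sexes, with a change of 0.74 in females (0.06 to 1.41, exact p = 0.0316, FDR = 0.296) and 0.89 in males (0.22 to 1.56, exact p = 0.00886, FDR = 0.137). The 2 bins overlap almost entirely and come from different animals, and the difference between the sexes was within its error (-0.16, -1.11 to 0.79). Trend-adjusted, the changes at about 80 kb were 0.58 and 0.43, and neither had a p under 0.05 any longer. A bin 89.4 kb upstream had 1.22 in females (0.32 to 2.13, exact p = 0.00809) and the overlapping bin in males 0.10 (exact p = 0.870), and that difference of 1.13 was also within its error (-0.33 to 2.59). The female bin at 89.4 kb was near the lower edge of signal, with 1.38% of bins below its level. Trend-adjusted, its change was 1.48, with an adjusted p of 0.0796, and that of the male bin 0.19. Downstream of the gene 8 of 10 male bins were lower, with a median of -0.46, where 54.2% of all male bins outside promoters were lower with a median of -0.07. Of the 10, 3 had an unadjusted p under 0.05, against 21.8% of all bins, namely at 54.4 kb (-1.15, exact p = 0.00508), 57.5 kb (-0.97, exact p = 0.0149) and 100.1 kb (-1.14, exact p = 0.00622). Trend-adjusted, these 3 changes were -0.97, -0.65 and -0.77, and only the first kept a p under 0.05. In females 3 of 4 downstream bins were lower, with a median of -0.23 and none under 0.05. Most distal bins lay in non-coding genes, Gm32828 and the pseudogene Gm9144 upstream and Gm33037 downstream.

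**Figure D3:**
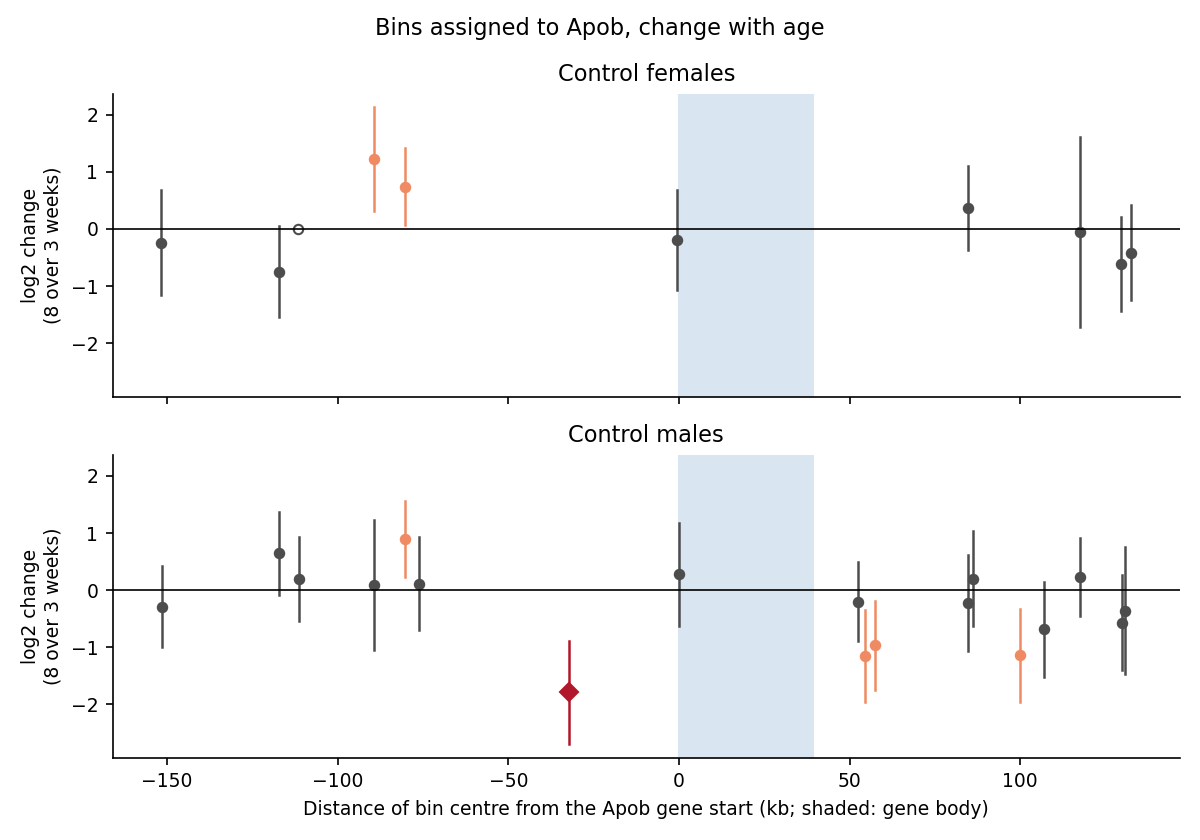
Log2 change with age (y axis, 8 over 3 weeks) of all bins assigned to Apob against the distance of the bin centre from the gene start in kb (x axis), in control females and control males. Lines are approximate 95% intervals, the dark red diamond is the bin that passed the FDR threshold, orange marks an unadjusted p under 0.05, and an open point a p of 1; the diamond at 32.3 kb upstream is the lowest point, and the orange bin at 80.3 kb in females and 80.2 kb in males is above 0 in both.

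Mttp (chr3:138089854-138144968, minus strand) was marked at its inner promoter and in the gene body. In control males the promoter bin chr3:138143347-138143847, which holds the whole of the printed Mttp window, had implied means of 2.91 and 5.17 CPM and a log2 change of 0.83 (0.04 to 1.62, FDR = 0.299). Trend-adjusted, this change was 0.34 and no longer had a p under 0.05. No bin of this peak was listed in the female age table. The 2 male intron bins had -0.26 (exact p = 0.568) and -0.58 (exact p = 0.147). A bin at an exon of the antisense gene Gm43691, 30.9 kb into Mttp in males and 30.8 kb in females, had the highest average level of the members in females, with 9.64 and 8.61 CPM in females (-0.16, exact p = 0.669) and 4.99 and 4.90 CPM in males (-0.03, exact p = 1). Neither value at this bin could be told from 0. Trend-adjusted, the male value at this bin turned to 0.02 and that of the intron bin with -0.26 to 0.17.

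Apoe (chr7:19696109-19699188, minus strand), the ligand for uptake of remnant particles, and Apoc1 (chr7:19689481-19692660, minus strand), which hinders that uptake, lie together in a span of 9708 bp. In control females the Apoe bin chr7:19696872-19697372 had implied means of 4.43 and 8.31 CPM and a change of 0.91 (0.16 to 1.65, exact p = 0.0168, FDR = 0.219). In males a neighbouring piece of the gene, with a level above that of 98.4% of all bins, had 8.08 and 8.53 CPM (0.08, -0.54 to 0.70, exact p = 0.805). Trend-adjusted, the male value turned to -0.45 and the female one was 0.98. The pieces do not overlap, so the sexes cannot be compared at Apoe. Apoc1 had a bin 4.3 kb downstream of its start in females with -0.48 (exact p = 0.234). Near its start it had changes of 0.24 in females (exact p = 0.607) and 0.47 in males (exact p = 0.233), and their difference of -0.24 was within its error (-1.43 to 0.95). Trend-adjusted, these 2 changes were larger, at 0.49 and 0.82, and the male one had a p under 0.05 but an adjusted p of 0.289.

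**Figure D4:**
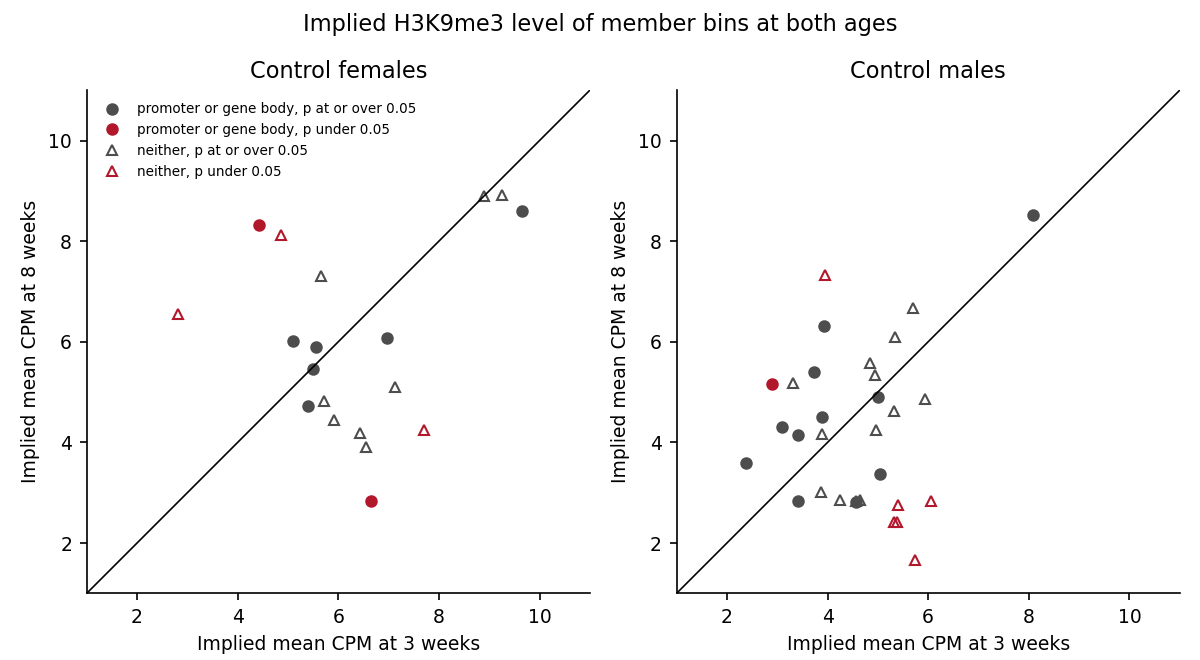
Implied mean CPM at 8 weeks (y axis) against that at 3 weeks (x axis) of each member bin in control females and control males, where the line marks equal levels. Circles are bins in a promoter or gene body, triangles the rest, and red an unadjusted p under 0.05; the lowest triangle in males, at 5.75 and 1.66 CPM, is the bin upstream of Apob.

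No member bin passed, with MO, the threshold of an unadjusted p under 0.001 that the study used for this contrast. The counts were 0 of 22 in females at 3 weeks, against 0.211% of all bins, 0 of 30 in males at 3 weeks, against 0.278%, 0 of 18 in females at 8 weeks, against 0.162%, and 0 of 19 in males at 8 weeks, against 0.114%. At an unadjusted p under 0.05 the counts by the authors' exact test were 0 of 22 against 7.72%, 3 of 30 against 8.83%, 2 of 18 against 7%, and 1 of 19 against 6.5%, in the same order. The smallest FDR of any member bin was 0.815. A log2 change above 0 is a higher level with MO in what follows.

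In males at 3 weeks 23 of 30 member bins were lower with MO and their median was -0.21, where 52.1% of all bins were higher and the median was 0.03. Of these 30 bins, 17 belong to Apob or its surroundings and lie on 1 chromosome. The bins with an unadjusted p under 0.05 were in Apoc1, Apoe and upstream of Apob, and all 3 were lower. In females at 3 weeks 12 of 22 were lower, with a median of -0.18, where 49.2% of all bins were higher with a median of -0.01. At 8 weeks 7 of 18 were lower in females, with a median of 0.13, where 50.9% of all bins were higher with a median of 0.01. In males at 8 weeks 12 of 19 were lower, with a median of -0.10, where 50.4% of all bins were higher with a median of 0.005. The MO tables share their control libraries with the age tables, so the values of a bin in both are not independent.

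**Figure D5:**
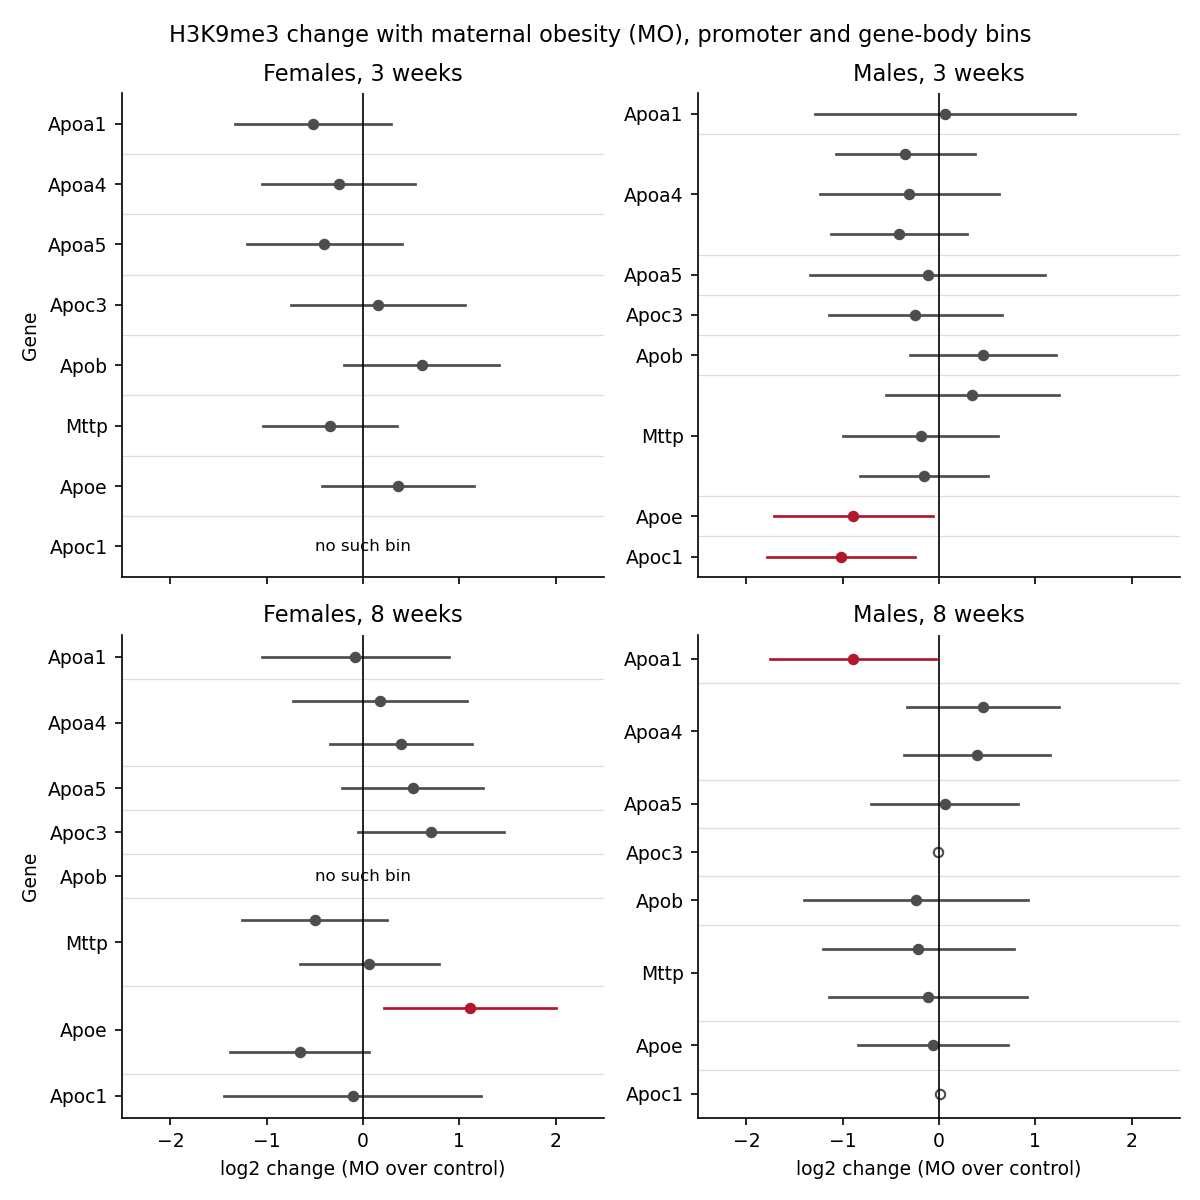
Log2 change with maternal obesity (x axis, MO over control) of each bin in a promoter or gene body, a row each, for both sexes at 3 weeks (top) and 8 weeks (bottom). Points are the authors' changes, lines the approximate 95% intervals, red an unadjusted p under 0.05, open points a p of 1 and "no such bin" a gene with no bin there; the red rows are Apoe and Apoc1 in males at 3 weeks, Apoe in females at 8 weeks and Apoa1 in males at 8 weeks.

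Apoa1 had its lowest value with MO in males at 8 weeks. The bin chr9:46229645-46230145 had implied means of 7.54 CPM in CM and 4.06 CPM in MM, a log2 change of -0.89 (-1.76 to -0.03, exact p = 0.0433, FDR = 1). In females at 8 weeks a bin that overlaps it had 5.86 and 5.54 CPM (-0.08, exact p = 0.872), and the difference between the sexes of 0.81 was within its error (-0.49 to 2.11). At 3 weeks the Apoa1 bins had -0.52 in females (exact p = 0.210) and 0.06 in males (exact p = 0.926). A further female bin 3.8 kb upstream of Apoa1 had -0.49 (exact p = 0.354). No value but the first had an interval that excluded 0.

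In the rest of the cluster no bin had an unadjusted p under 0.05 with MO. Apoa4 had -0.25 in its gene in females at 3 weeks (exact p = 0.534), and 0.17 (exact p = 0.705) and 0.40 (exact p = 0.290) at 8 weeks. In males its 3 promoter bins had -0.35, -0.31 and -0.41 at 3 weeks (exact p from 0.251 to 0.518), and 0.46 (exact p = 0.253) and 0.39 (exact p = 0.310) at 8 weeks. In each sex the sign turned from 3 to 8 weeks, but where the same bin was listed at both ages the difference was within its error: 0.65 in females (-0.43 to 1.74), and 0.77 (-0.45 to 1.98) and 0.81 (-0.23 to 1.84) in males. The 4 distal Apoa4 bins, all at 3 weeks, had changes from -0.28 to 0.07. Apoa5 had -0.40 (exact p = 0.326) and 0.51 (exact p = 0.171) in females at 3 and 8 weeks and -0.12 (exact p = 0.851) and 0.06 (exact p = 0.880) in males, each at another piece of its peak. Apoc3 had 0.15 (exact p = 0.737) and 0.71 in females, the latter with 5.25 CPM in CF and 8.58 CPM in MF (-0.05 to 1.46, exact p = 0.0669), and -0.24 (exact p = 0.595) and -0.01 (exact p = 1) in males.

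The Apob promoter did not differ with MO beyond its error. The log2 changes there were 0.61 in females at 3 weeks (-0.19 to 1.42, exact p = 0.137), with 3.70 CPM in CF and 5.65 CPM in MF, 0.46 in males at 3 weeks (-0.30 to 1.22, exact p = 0.236) and -0.24 in males at 8 weeks (-1.40 to 0.93, exact p = 0.690). The table of females at 8 weeks listed no Apob promoter bin. Of the distal bins, the fully masked bin 32148 bp upstream was listed in males at 3 weeks, with 5.22 CPM in CM and 2.73 CPM in MM and a change of -0.94 (-1.69 to -0.18, exact p = 0.0148, FDR = 0.829). This comparison uses the same CM libraries at 3 weeks as the age comparison in which the bin fell. In females at 8 weeks a bin 84.7 kb downstream of the Apob start had -0.85 (-1.65 to -0.05, exact p = 0.0377), and the same bin at 3 weeks -0.21 (exact p = 0.598). The remaining distal Apob bins had changes from -0.65 to 0.73 and an unadjusted p of 0.0688 or more.

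Mttp had promoter bins in 3 of the 4 MO tables, with changes of 0.34 in males at 3 weeks (exact p = 0.451), -0.21 in males at 8 weeks (exact p = 0.671) and -0.50 in females at 8 weeks (7.69 CPM in CF and 5.44 CPM in MF, -1.25 to 0.25, exact p = 0.193). The bin at the Gm43691 exon stayed between -0.34 and 0.07 in the 4 tables (exact p from 0.334 to 0.856). The male intron bin had -0.19 at 3 weeks (exact p = 0.639). None of the 8 Mttp values differed from 0 beyond its error.

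Apoe had the largest positive change of any member with MO. In females at 8 weeks the bin chr7:19700490-19700990, 1302 bp before a start of Apoe, had 2.99 CPM in CF and 6.46 CPM in MF, a change of 1.11 (0.22 to 2.00, exact p = 0.0150, FDR = 0.966). Only 4.05% of all bins had a lower level, and a bin of this peak was assigned to Apoe in this comparison alone. In the same table the bin inside Apoe had 8.22 and 5.22 CPM and a change of -0.66 (-1.38 to 0.06, exact p = 0.0740). The values before and within the gene thus had opposite signs in 1 comparison. At 3 weeks the inner bin had 0.36 in females (exact p = 0.371), and the difference of -1.02 between the ages was within its error (-2.09 to 0.05). In males Apoe had -0.89 at 3 weeks (4.28 CPM in CM and 2.31 CPM in MM, -1.72 to -0.06, exact p = 0.0356, FDR = 0.892) and, at another piece, -0.06 at 8 weeks (exact p = 0.883). Apoc1 had -1.02 in males at 3 weeks (4.78 and 2.36 CPM, -1.79 to -0.25, exact p = 0.00956, FDR = 0.815), the smallest p of the members in any MO table. That bin lay 2.8 kb into Apoc1, and the Apoc1 bins of the other comparisons lay elsewhere. In females at 3 weeks a bin outside the gene, 4.3 kb from its start, had -0.52 (exact p = 0.166). At 8 weeks a bin 0.4 kb from the start had -0.11 in females (exact p = 0.874). A bin at 0.6 kb had 0.01 in males at 8 weeks (exact p = 1).

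Differences between sexes and ages were tested wherever bins of 2 tables overlapped by at least 50% of each bin. For age, 7 member pairs of females and males could be set side by side, for MO 7 pairs at each age, and between the ages 10 pairs in females and 10 in males. None passed an adjusted p of 0.05 over all pairs of its kind, from 42947 to 65716, and no pair of any gene did. Of the 41 member pairs, 2 had an unadjusted p under 0.05. One was the pseudogene Gm9144 upstream of Apob, with a change with age of -0.75 in females and 0.65 in males (difference -1.39, -2.47 to -0.31, adjusted p = 0.567). Of the 75-base stretches of these 2 bins 39.3% occur elsewhere in the genome. The other was the bin about 80 kb upstream of Apob in females, with an MO change of 0.60 at 3 weeks and -0.50 at 8 weeks (difference -1.10, -2.11 to -0.09, adjusted p = 0.807).

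The wider lipoprotein pathway was read from 4 lists with 64 genes, namely other apolipoproteins, assembly and secretion factors, receptors and lipases, and the transcription factors of the members. With age 10 of their 331 bins passed the FDR threshold in females, or 3.02%, where 1 rose and 9 fell, and 15 of 434 in males, or 3.46%, where 7 rose and 8 fell. These shares were near the 2.72% and 4.41% of all bins. Among 11 other apolipoproteins 1 of 20 female bins passed, or 5%, assigned to Apoh but in an intron of another gene far upstream. None of 26 male bins passed. Of these 26, 5 had an unadjusted p under 0.05, or 19.2%, against 21.8% of all male bins. Among the 19 assembly and secretion genes 1 of 85 female bins passed, or 1.18%. Surf4, a cargo receptor for lipoproteins, fell there in a bin 3509 bp from its start (log2 change -1.78, FDR = 0.00184). In males 5 of 102 bins passed, or 4.90%, against 4.41% of all bins. Dgat1, which makes triglyceride, fell at its promoter (-2.75, FDR = 0.00103) from 4.99 to 0.742 CPM. The average level of that bin, 2.87 CPM, was below that of the male Apoc3 bin, 2.98 CPM, and so at the lower edge of signal. Mia2, which takes part in the export of large cargo from the endoplasmic reticulum, rose at its start (1.21, FDR = 0.0456). The others were a bin 7078 bp from a start of Sort1, which fell, and 2 distal bins of Lpin1 with opposite signs.

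Of the 21 receptors, lipases and remodelling genes, 5 of 154 bins passed the FDR threshold in females, or 3.25%, against 2.72% of all bins. All 5 fell, among them bins of Lipg, Scarb1, Abcg1 and Lmf1. In males 8 of 191 bins passed, or 4.19%, against 4.41%. Among them, the promoter bin of the lipoprotein receptor Vldlr (1.24, FDR = 0.0134) and an exon bin assigned to the cholesterol exporter Abca1 rose, and bins of Scarb1, Lrp1 and Lmf1 fell. Of the 13 transcription factors, 2 of 115 bins passed in males, or 1.74%, against 4.41% of all bins. In females 3 of 72 passed, or 4.17%, against 2.72%. Nr1h2, an oxysterol receptor, rose in males at its promoter from 6.15 to 17.4 CPM (FDR = 5.56e-05), and so did Onecut1 (1.27, FDR = 0.0101). The 3 female bins were all assigned to Rxra, 2 lower and 1 higher. After the trend with GC content and signal was removed, Surf4, Dgat1, Nr1h2, Abca1 and 1 Lpin1 bin remained under an adjusted p of 0.05, and the other 20 did not. That Lpin1 bin lay between genes, 146589 bp from a start of Lpin1, and 94.8% of its bases are soft-masked.

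With MO 2 of 396 list bins passed in females at 3 weeks, 2 of 473 in males at 3 weeks, 1 of 293 in females at 8 weeks and 1 of 277 in males at 8 weeks, or 0.505%, 0.423%, 0.341% and 0.361%. The shares of all bins were 0.211%, 0.278%, 0.162% and 0.114% in the same order, and each list share rests on 1 or 2 bins. They belonged to Rxra and Scarb1 in females at 3 weeks, both lower, Creb3l3 (lower) and Rxra (higher) in males at 3 weeks, Ppara in females at 8 weeks, and Vldlr in males at 8 weeks. Ppara, a fatty acid receptor, had a promoter bin with a change of -1.43 (FDR = 0.807), and Vldlr its promoter bin with -1.25 (FDR = 1). The Vldlr bin is the one that rose with age in control males, and both comparisons use the CM libraries of 8 weeks. No member had a bin among these calls.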

How the data were processed

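H3K9me3 ChIP-seq of mouse liver was read from 6 tables of comparisons. The members, gene lists and tests were chosen with earlier results of these data known. Per the study's methods and the labels, the authors aligned reads to mm10 (GRCm38), called broad peaks with MACS2, merged peaks per sex, counted reads in pieces of long peaks, ran edgeR's exact test per contrast and assigned nearest genes. The fold and the average CPM of a bin are on the log2 scale as deposited, beside the p-value and FDR that the authors computed. How libraries were scaled against each other is not given in the sources used here. The age tables give 3 over 8 weeks, and their sign was turned here.

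The tables hold comparisons and no value per library, so no contrast was refitted, and the planned tests on counts gave way to the deposited values. Each peak has 1 listed bin, and how it was chosen is not stated. Of the 32 member peaks longer than 1 bin and listed in several tables of a sex, 13 had another piece listed in another table.

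The call for age was an FDR under 0.05, and that for MO the study's own p under 0.001. Standard errors and 95% intervals were approximated from the change and p. Differences between comparisons used these errors with Benjamini-Hochberg adjustment over all overlapping bins. For a trend with GC content and signal, the median change of each combination of deciles was subtracted and p recomputed. This step was tested on simulated data. Every member was named in every comparison, with its promoter and gene-body bins by value and distal ones by range. List genes were named where called, except for 1 item that is not reported here. GC content, soft-masking, repeated stretches and promoter windows came from GRCm38.p6 and RefSeq, gene bounds from GENCODE vM21. Alternatives were other thresholds, adjustment over the deposited bins, trend removal, bins above the median signal, promoter and gene-body bins, assignment by position (within 10000 bp) and counting genes. Python 3.11.15 with numpy 2.4.6, pandas 2.3.3, scipy 1.17.1 and pysam 0.24.0 was used.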

Additional observations from a re-analysis of the deposited data

How the results depend on the processing

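The count of member bins called for age in males, 1, became 0 once the trend with GC content and signal was subtracted, 0 among bins above the median signal, 0 among promoter and gene-body bins and 0 with bins assigned by position; the last 3 leave out the Apob bin by construction, and the cause of the first was not tested. The Apob bin kept its direction, at -1.39 with an adjusted p of 0.0870. At an unadjusted p under 0.05 the counts were 5 (females) and 7 (males) for age, and with MO 3 in males at 3 weeks, 2 in females at 8 weeks and 1 in males at 8 weeks. With MO in males at 3 weeks 1 bin had a p under 0.01. The other counts were the same under every alternative that was run. By position, between 10 and 14 bins per table were shared with those chosen by symbol.

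No paired analysis was possible because the tables give no value per library; for the same reason leaving out each replicate was not run. Depth per library is unknown, and a change under about 0.8 on the log2 scale lies within the interval of a typical member bin.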
